A study of Drosophila melanogaster with 288 samples.

Results

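The transcriptomes of single Drosophila melanogaster embryos of 17-18h were compared with those of 8-9h. Among the 8 stages of the series, embryos of the same age differed least from each other at 8-9h. At 17-18h they differed less than at 14-15h or 20-21h, but more than at 5-6h or 11-12h. The 17-18h and 8-9h ages lie on either side of the period in which organs take shape and tissues begin to differentiate. Of the 288 samples of the series, 30 carry the age 17-18h and 36 the age 8-9h. A sample was kept at 300000 counts or more on protein-coding genes, at 4500 or more genes with a count above 0, and outside a small cluster of samples of mixed age that the study set aside as unfertilized eggs. This left 45 embryos, 18 of 17-18h and 27 of 8-9h, from 153 embryos that pass the same rule over all stages. The limits and the cluster were worked out anew here, and the number of embryos kept over all stages differs from the study's. At 17-18h, 8 samples failed the first 2 limits and 4 lay in the cluster, and at 8-9h none failed and 9 lay in the cluster.

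The embryos of both stages were of the strain w1118, reared at room temperature on a 12-h light-dark cycle, with no mutation or treatment that sets the stages apart. Eggs were laid over a short window in population cages and then left to reach the stated age. The sex of an embryo is not labelled, so each stage holds an unknown mixture of male and female embryos. A sample is the RNA of 1 whole embryo, measured by BRB-seq, in which embryos receive a barcode at reverse transcription and share a library, and reads come from the 3′ end of polyadenylated RNA. The unit used below is the normalised cpm, the counts of a gene scaled to a common library size (cpm) and corrected by edgeR's TMM factors, and because 1 end is read per transcript it is not divided by gene length and is compared only within a gene.

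The samples came from 4 libraries named E1_1, E1_2, E2 and E3 (names of libraries, not of stages). The 17-18h embryos numbered 3, 5, 9 and 1 in these libraries, and the 8-9h embryos 9, 8, 6 and 4. Totals on protein-coding genes were 745439 to 24787342 counts with a median of 7760890 in the 17-18h embryos, against 1966457 to 18905261 with a median of 6135829 in the 8-9h embryos. The highest total among the failed 17-18h samples was 226931, and the lowest total that passed was 468317, in a sample of the small cluster. Members were thus selected on expression as well as on labels: on the 2 axes of a multidimensional scaling, the 17-18h embryos used lay at 0.244 to 0.426 on the first axis and the 4 left out at -0.184 to -0.112, with the limit at -0.0554. The 8-9h embryos used lay at -0.227 to -0.0441 on the second axis and the 9 left out at 0.0777 to 0.138, on either side of 0. The positions on these axes are therefore no finding. With the 13 samples of the cluster included, 2858 genes were called higher and 2609 lower under the rule given below.

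The earlier of these ages corresponds in the study to the extended germ band stage of the fruit fly embryo. The segmented body plan has by then been laid down. Cells then still divide, neuroblasts bud off neurons, Notch signalling chooses between fates, and muscle precursors fuse. At the later age the organs have formed, larval muscles contract, nerves release transmitter, and the epidermis and trachea are depositing the first larval cuticle, a layer of chitin and protein that is hardened before hatching.

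Several embryos stood apart before any comparison was made. By Spearman correlation over 9606 genes, 1 of the 18 17-18h embryos (replicate 20) was most like the mean of 14-15h embryos. Of the 27 8-9h embryos, replicate 14 was most like the 11-12h mean and replicate 15 most like the 2-3h mean. Replicate 15 of 8-9h also had the lowest TMM factor, 0.417, so that its normalised cpm are scaled up for every gene. The stages were checked against markers of tissues that whole embryos hold. Muscle markers (Mhc, Mlc1, Mlc2, up, wupA, sls, bt and Tm2) summed to 20400 to 89600 cpm at 17-18h, against 327 to 4650 cpm at 8-9h. Glial markers (repo, moody, Gs2, Eaat1 and wrapper) summed to 555 to 1410 cpm at 17-18h, against 29.3 to 894 cpm at 8-9h. The glial sum does not stand for all glial genes: of a list of 13, 4 were higher and 3 lower by the rule given below. These shares (30.8% and 23.1%) were near the 31.8% and 28.8% of all genes. Neuroblast markers (wor, ase, dpn and mira) summed to 1.3 to 17.4 cpm at 17-18h, against 9.59 to 195 cpm at 8-9h. The neuronal markers elav, nSyb, Syt1, para, brp and cac summed to 3.04 to 313 cpm (median 89.3) at 17-18h, against 16.7 to 559 cpm (median 139) at 8-9h, so the older embryos did not have the higher median. This sum does not stand for each member: nSyb, Syt1, brp and cac were each called higher at 17-18h by the rule given below. Their log2 fold changes were 3.97, 3.77, 2.91 and 3.39, and elav and para were not read by themselves here. Of the mother's yolk and eggshell genes (Yp1, Yp2, Yp3, Cp15, Cp16, Cp18 and Cp19), 0 of 7 had a median of 1 cpm or more at either stage.

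Of 9606 protein-coding genes with a mean above 1 cpm, 3059 were higher at 17-18h than at 8-9h (31.8% of the genes tested) and 2768 were lower (28.8%), by edgeR's quasi-likelihood test with library as a covariate. A call asked for an adjusted p under 0.05 together with a change of more than 1 on the log2 scale. The other 3779 genes were not called. The median log2 fold change over all genes was -0.14. The genes called higher had a median of 3.34 and those called lower a median of -1.76, and the extremes were 7.63 and -7.60. A log2 fold change above 5 was found for 643 genes called higher, and one below -5 for 20 genes called lower. In 555 genes (5.78%) every 17-18h embryo was above every 8-9h embryo, and in 117 genes (1.22%) every 17-18h embryo was below.

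The reads followed the same division. Genes called higher took 39.9 to 53.9% of the counts of a 17-18h embryo (median 48.8%), against 3.98 to 11% in 8-9h embryos (median 6.47%). Genes called lower took 4.35 to 8.28% at 17-18h (median 6.24%), against 21.9 to 36.6% at 8-9h (median 28.6%). The calls chose these genes, so their shares are a description. The mean TMM factor was 0.862 at 17-18h and 1.14 at 8-9h, and without this scaling 2726 genes were called higher and 3681 lower, with a median log2 fold change of -0.52 over all genes. No gene called in the comparison changed sign under that scaling or with DESeq2's size factors.

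The other 6 stages place the change in time. Of the genes called higher, 887 (29%) had their highest stage median at 14-15h, 1041 (34%) at 17-18h itself, and 520 and 478 at 20-21h and 23-24h. Of the genes called lower, 829 (29.9%) were highest at 2-3h, 986 (35.6%) at 5-6h and 663 (24%) at 8-9h. For the 2689 genes called higher whose stage medians also differed by more than 1 on the scale log2(cpm + 1), the median gene had covered 20% of its rise at 11-12h and 84.6% at 14-15h. For 2433 genes called lower chosen in the same way, the median gene had covered 37.3% of its fall at 11-12h and 80.7% at 14-15h. For the median gene, most of the difference was thus in place in 14-15h embryos.

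The 10 largest rises among genes whose stages did not overlap and whose median reached 50 cpm were CG45078, CG33500, sit, Bace, CG8630, CG33272, CG1213, CG33110, CG14205 and TwdlN. CG45078 (FBgn0266448, chromosome 3R, 10773339 to 10777374, BDGP6) had 34.2, 162 and 564 cpm in the lowest, median and highest 17-18h embryo, against 0, 0.534 and 3.36 cpm at 8-9h (log2 fold change 7.63 ± 0.40, edgeR adjusted p = 1.14e-23). Bace, an aspartyl protease related to the enzymes that cut the amyloid precursor protein in mammals, had 54.6, 339 and 1431 cpm at 17-18h, against 0.21, 2.53 and 8.58 cpm at 8-9h (log2 fold change 7.47 ± 0.31, edgeR adjusted p = 2.65e-28). TwdlN (FBgn0039441, 3R, 26631869 to 26632956), a cuticle protein of the Tweedle family, had 723, 2937 and 6934 cpm at 17-18h, against 2.28, 19.8 and 84.8 cpm at 8-9h (log2 fold change 7.20 ± 0.26, edgeR adjusted p = 3.76e-31). In each of these genes all 18 embryos of 17-18h lay above all 27 embryos of 8-9h. The timing was not shared: the median of TwdlN was already 791 cpm at 14-15h, whereas CG14205 had 0.886 cpm at 14-15h and 51.4 cpm at 17-18h, and CG33272 had 25.1 and 2714 cpm.

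**Figure D1:**
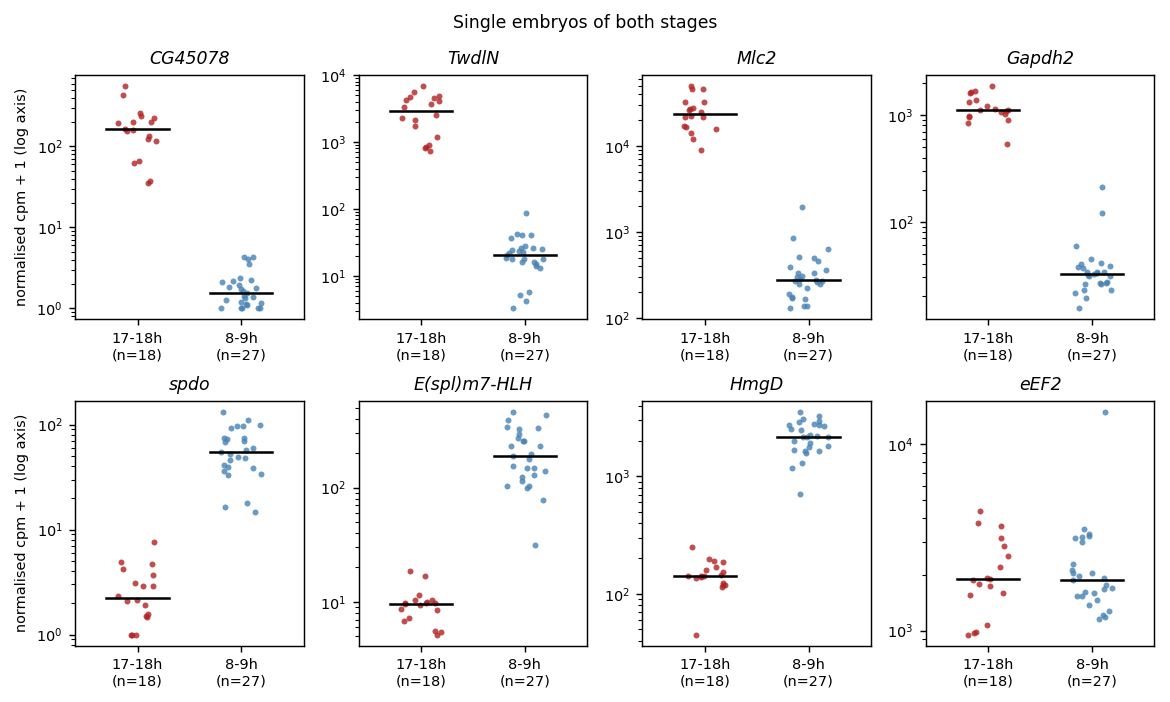
Normalised cpm plus 1 (log axis) of 8 genes in each of 18 embryos of 17-18h and 27 embryos of 8-9h, with the stage median as a line. CG45078, TwdlN, Mlc2 and Gapdh2 were higher at 17-18h with no overlap, spdo, E(spl)m7-HLH and HmgD were lower with no overlap, and eEF2 overlapped, with medians of 1882 cpm at 17-18h and 1865 cpm at 8-9h.

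The size of these rises rests on low counts at 8-9h. Summed over the 10 genes and divided by the library total without TMM scaling, the 17-18h embryos held 1802 to 14600 cpm (median 9277). The 8-9h embryos of libraries E1_1, E1_2 and E2 held 49.5 to 111 cpm (n = 23), and those of library E3, which holds 1 used embryo of 17-18h, held 16.8 to 29.5 cpm (n = 4). The low level at 8-9h thus moved with the library, and what gives rise to it was not tested.

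**Figure D2:**
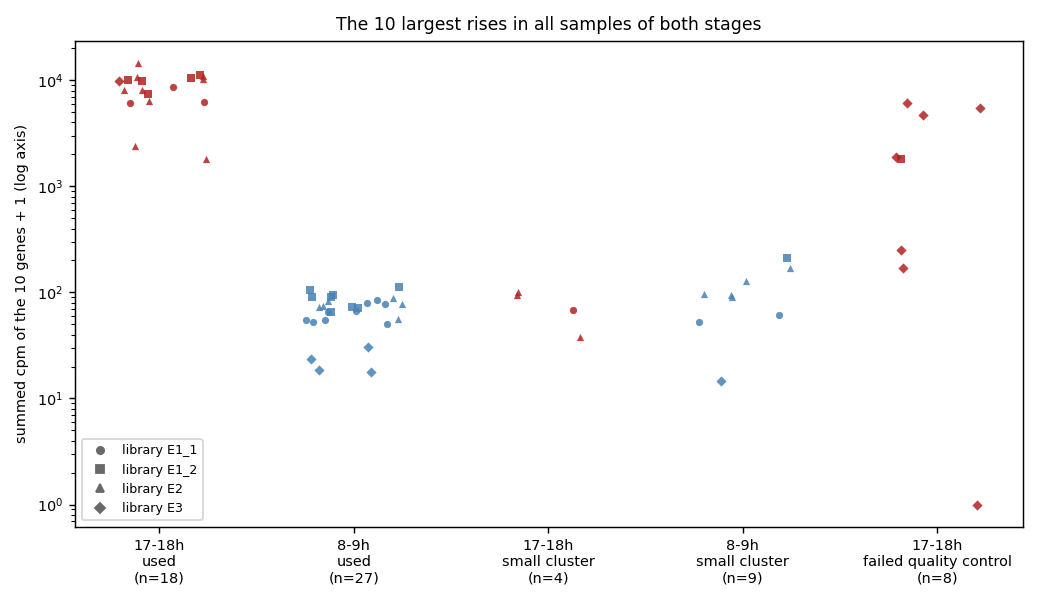
Summed cpm plus 1 (log axis) of the 10 genes with the largest rises, in every sample labelled 17-18h or 8-9h, by library (marker shape) and by whether the sample was used. The 18 used 17-18h embryos lie at 1802 to 14600 cpm, the used 8-9h embryos at 16.8 to 111 cpm with library E3 lowest, and the samples of the small cluster at 13.6 to 208 cpm.

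The 10 largest falls under the same conditions were yellow-e3, spdo, Cpr5C, Ama, E(spl)m7-HLH, CG42762, Kah, Dtg, Rrp1 and HmgD. The gene yellow-e3 (FBgn0038150, 3R, 13403423 to 13404870), of the Yellow protein family, had 0.99, 2.05 and 5.63 cpm at 17-18h, against 23.2, 107 and 256 cpm at 8-9h (log2 fold change -5.65 ± 0.26, edgeR adjusted p = 3.04e-26). HmgD (FBgn0004362, 2R, 21701458 to 21716727), a high mobility group protein of early embryonic chromatin, had 44, 139.9 and 250.2 cpm at 17-18h, against 712, 2177 and 3530.5 cpm at 8-9h (log2 fold change -3.92 ± 0.19, edgeR adjusted p = 1.22e-25). All 18 embryos of 17-18h lay below all 27 of 8-9h in both genes, and the median of HmgD was already 251 cpm at 14-15h. Ama, the secreted adhesion protein Amalgam of the nervous system, fell to 10.6, 41.8 and 64.3 cpm in 17-18h embryos, against 431, 1200 and 2581 cpm in 8-9h embryos (log2 fold change -4.83 ± 0.20, edgeR adjusted p = 4.16e-28). Cpr5C was the only tested member of the Cpr cuticle protein family called lower, at a median of 6.51 cpm at 17-18h against 144 cpm at 8-9h.

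Cuticle protein genes rose together. Of 48 tested members of the Cpr family, structural proteins with a chitin-binding domain, 46 were higher and 1 lower, with a median log2 fold change of 5.00 against -0.14 over all genes. Among 19 genes of the Tweedle family 18 were higher and none lower (median 3.95). The summed level of the Cpr genes was 3004 to 20500 cpm at 17-18h, against 184 to 974 cpm at 8-9h. Its stage median was 18470 cpm at 14-15h and 6058 cpm at 17-18h, so 17-18h was past the highest stage. Cpr78Cc, with the smallest adjusted p of its family, had 711, 1103 and 1838 cpm at 17-18h, against 5.08, 15.6 and 32.8 cpm at 8-9h (log2 fold change 6.23 ± 0.15, edgeR adjusted p = 1.41e-38), so even its lowest late embryo stood far above its highest early one. Cpr47Eg and Cpr62Bb rose with log2 fold changes of 6.29 and 5.76, also without overlap. Cpr78E, at a median of 0.5 cpm at 17-18h and 1.67 cpm at 8-9h, was the member not called (adjusted p = 0.057, edgeR), and it was called lower in 5 of the 17 alternative settings, among them without TMM scaling.

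The Tweedle genes varied more. TwdlP had 72, 468 and 804 cpm at 17-18h, against 1.26, 5.19 and 13.1 cpm at 8-9h (log2 fold change 6.69 ± 0.21, edgeR adjusted p = 2.07e-33), without overlap. TwdlL had 82.9, 2251 and 7752 cpm at 17-18h, against 1.68, 26.2 and 109 cpm at 8-9h (log2 fold change 6.76 ± 0.33, edgeR adjusted p = 6.53e-25), and 17 of the 18 late embryos lay above all early ones. The reads of Tweedle genes, many of which lie side by side and resemble each other, could be split between copies by the counting, so single members are uncertain. The summed median of the family was 22610 cpm at 14-15h, 16640 cpm at 17-18h and 796.5 cpm at 20-21h.

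Most genes of chitin synthesis, chitin deposition and tanning were also higher. Of 17 genes of chitin synthesis and deposition 14 were higher and none lower (median log2 fold change 2.19), and of 9 genes of tanning 8 were higher and none lower (median 2.57). Summed over the chitin genes, the stage median was 6411 cpm at 14-15h and 2973 cpm at 17-18h. The chitin-binding protein gene obst-E had 262, 586 and 1087 cpm at 17-18h, against 1.05, 8.18 and 20.2 cpm at 8-9h (log2 fold change 6.35 ± 0.22, edgeR adjusted p = 5.67e-32), without overlap. For mmy, which makes the activated sugar that chitin synthase uses, the values were 65.7, 301 and 469 cpm at 17-18h, against 12.3, 40.1 and 111 cpm at 8-9h (log2 fold change 2.68 ± 0.25, edgeR adjusted p = 6.07e-14), and 14 of the 18 late embryos lay above all early ones. The chitinase Cht5 rose with a log2 fold change of 4.88, whereas the chitinase Cht2 had medians of 27.1 cpm at 17-18h and 18.8 cpm at 8-9h and was not called (adjusted p = 0.0572, edgeR). Of the genes of catecholamine metabolism, Ddc, which makes dopamine, had 21.2, 44.7 and 329.9 cpm at 17-18h, against 0, 1.27 and 6.63 cpm at 8-9h (log2 fold change 5.25 ± 0.31, edgeR adjusted p = 1.23e-21). The tyrosine hydroxylase gene ple and the pigmentation gene y rose with log2 fold changes of 5.66 and 5.47. Catsup, a negative regulator of that hydroxylase, had medians of 98.5 cpm at 17-18h and 189.7 cpm at 8-9h and a log2 fold change of -0.67, short of the fold required.

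Muscle genes changed in opposite directions according to their role. Of 28 tested genes of the contractile apparatus 27 were higher at 17-18h and none lower (median log2 fold change 4.84). Of 18 genes of muscle specification and fusion 11 were lower (61.1%, against 28.8% of all genes) and none higher. Their median was -1.48, and 6 were lower within library E1_2. Mlc2, the regulatory light chain of muscle myosin (FBgn0002773, 3R, 30171438 to 30174551), had 8991, 23795 and 50554 cpm at 17-18h, against 129, 278 and 1939 cpm at 8-9h (log2 fold change 6.13 ± 0.23, edgeR adjusted p = 5.55e-30). For Mf, which encodes the thick filament protein Myofilin (FBgn0038294, 3R, 15170625 to 15181510), the values were 1039, 2559 and 5632 cpm at 17-18h, against 6.47, 20.5 and 40.9 cpm at 8-9h (log2 fold change 6.96 ± 0.19, edgeR adjusted p = 5.31e-36), and for Zasp66, a Z-disc protein, 1630.4, 6335 and 14279 cpm at 17-18h, against 46.1, 94.4 and 294 cpm at 8-9h (log2 fold change 6.02 ± 0.19, edgeR adjusted p = 1.75e-33). Of the 28 genes, 18 did not overlap between the stages, these 3 among them, against 5.78% of all genes that were higher without overlap. The contractile genes together summed to a median of 93940 cpm at 17-18h, against 2353 cpm at 8-9h. In whole embryos a larger share of muscle cells and more of these transcripts per muscle cell cannot be told apart, and the same holds for every tissue below. RyR, the calcium release channel, had 4.55, 30 and 168 cpm at 17-18h, against 0.762, 16.4 and 109 cpm at 8-9h, and was not called (adjusted p = 0.0551, edgeR), though it passed in 7 of the alternative settings.

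Among the genes that act before contraction, sing, a membrane protein of myoblast fusion, fell to 0.748, 1.68 and 4.55 cpm at 17-18h, against 2.52, 47.4 and 319.6 cpm at 8-9h (log2 fold change -5.17 ± 0.39, edgeR adjusted p = 1.70e-17), with 17 of 18 late embryos below all early ones. The transcription factor genes lmd and twi, which act in fusion-competent myoblasts and in the mesoderm, fell with log2 fold changes of -4.82 and -2.66. The RNA-binding protein gene how, which also acts in mature muscle and tendon, had medians of 32.7 cpm at 17-18h and 70.1 cpm at 8-9h and a log2 fold change of -0.72, and was not called.

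**Figure D3:**
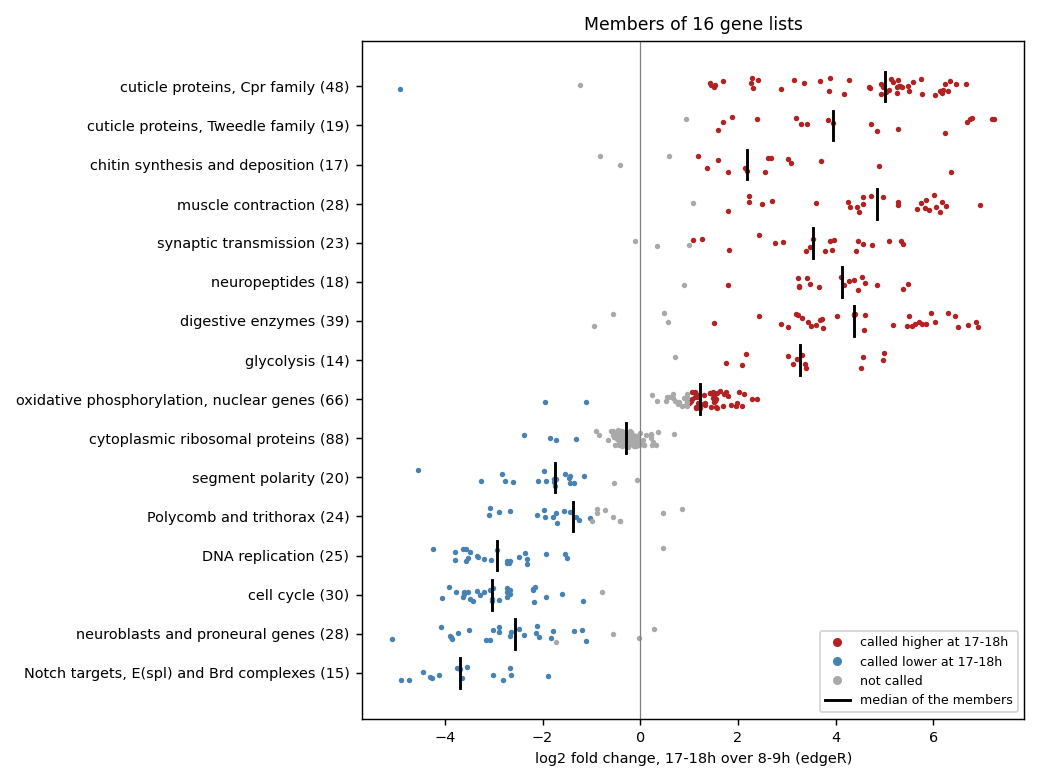
Log2 fold change of 17-18h over 8-9h for each tested member of 16 gene lists (number of members in brackets), coloured by call, with the median of each list as a black line. Lists of cuticle, muscle contraction, nerve function, digestion and metabolism lie to the right, ribosomal proteins near 0 at a median of -0.29, and lists of patterning, chromatin, replication and division to the left.

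The nervous system showed the same contrast between function and formation. Of 23 genes of synaptic transmission 20 were higher and none lower (median log2 fold change 3.54), of 12 ion channel genes 11 were higher and none lower (median 3.10), and of 18 neuropeptide genes 17 were higher and none lower (median 4.14). In contrast, of 28 genes of neuroblasts and proneural function none was higher and 24 were lower (median -2.56). The vesicular monoamine transporter gene Vmat had 17.8, 37.3 and 129.7 cpm at 17-18h, against 0.48, 1.51 and 12.2 cpm at 8-9h (log2 fold change 4.56 ± 0.36, edgeR adjusted p = 1.23e-16), without overlap. Rdl, a GABA receptor, and cpx, which encodes the release regulator complexin, rose with log2 fold changes of 4.74 and 3.88. Csp, a vesicle chaperone that many cells use, had 41.1, 64.8 and 131 cpm at 17-18h, against 16.8, 68.1 and 112 cpm at 8-9h (log2 fold change -0.11 ± 0.16, edgeR adjusted p = 0.575), and the stages overlapped. Summed over the synaptic genes, the stage median was 278.4 cpm at 8-9h, 1191 cpm at 14-15h and 815.7 cpm at 17-18h.

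Potassium and pacemaker channel genes rose, with some overlap between the stages. Irk2, an inward rectifier, had 1.52, 117 and 389.9 cpm at 17-18h, against 0.961, 2.4 and 10.6 cpm at 8-9h (log2 fold change 5.43 ± 0.37, edgeR adjusted p = 2.96e-19), and 17 of 18 late embryos lay above all early ones. Sh, the Shaker potassium channel, and Ih, the pacemaker channel, rose with log2 fold changes of 3.87 and 4.68. The sodium channel subunit gene tipE had medians of 2.2 cpm at 17-18h and 0.637 cpm at 8-9h and was not called (adjusted p = 0.0884, edgeR). The peptide hormone genes Akh, Dh31 and Tk rose with log2 fold changes of 4.16, 5.48 and 5.38, with 8-9h medians of 1.37, 0.419 and 0.21 cpm. Levels this low mean few reads per embryo, and CCAP, a peptide of the moulting sequence, had medians of 0.558 cpm at 17-18h and 0.32 cpm at 8-9h with no call (adjusted p = 0.297, edgeR).

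Among neural precursor genes, nerfin-1, a zinc finger factor of newborn neurons, fell to 0, 1.45 and 5.28 cpm at 17-18h, against 1.51, 60.5 and 146 cpm at 8-9h (log2 fold change -5.08 ± 0.37, edgeR adjusted p = 8.97e-18). The proneural gene tap and wor, of the Snail family of neuroblast factors, fell with log2 fold changes of -3.90 and -4.08. The exception with the highest level was grh, an epidermal and neuroblast factor, at medians of 31.6 cpm at 17-18h and 55.4 cpm at 8-9h and a log2 fold change of -0.55. Of 13 glial genes 4 were higher and 3 lower (30.8% and 23.1%, near the 31.8% and 28.8% of all genes), with a median of -0.12 that was above 0 in 3 of the 17 settings. The glutamate transporter Eaat1, the barrier transporter Mdr65 and the astrocyte gene alrm rose with log2 fold changes of 5.23, 5.51 and 3.64. The gene gcm, the switch that starts glial fate, fell to 0, 0.588 and 2.72 cpm at 17-18h, against 7.14, 34.9 and 69.5 cpm at 8-9h (log2 fold change -5.45 ± 0.37, edgeR adjusted p = 2.90e-19), without overlap.

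Genes of digestion and of energy supply were higher at the later stage. Of 39 digestive enzyme genes 35 were higher and none lower (median log2 fold change 4.38). The maltase gene Mal-A3 had 216, 572 and 1545 cpm at 17-18h, against 1.85, 4.09 and 25.5 cpm at 8-9h (log2 fold change 6.88 ± 0.27, edgeR adjusted p = 7.04e-29), without overlap, and the protease genes etaTry and Jon65Aiv rose with log2 fold changes of 6.50 and 6.44. The summed median of the list was 669 cpm at 14-15h, 4103 cpm at 17-18h and 11230 cpm at 20-21h. Trypsin and Jonah genes lie in clusters of near copies and are uncertain one by one. LManII, a lysosomal mannosidase rather than a gut enzyme, had medians of 25.6 cpm at 17-18h and 45.3 cpm at 8-9h and was not called.

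Of 14 glycolytic genes 13 were higher and none lower (median log2 fold change 3.26). The triose phosphate isomerase gene Tpi had 723, 1246 and 2129.9 cpm at 17-18h, against 12.9, 31.6 and 267 cpm at 8-9h (log2 fold change 4.98 ± 0.27, edgeR adjusted p = 7.22e-23). Gapdh2 and Gapdh1, copies of glyceraldehyde-3-phosphate dehydrogenase whose reads may be shared, were also higher. Gapdh2 had 536, 1119 and 1889 cpm at 17-18h, against 14.4, 31.5 and 209.9 cpm at 8-9h, and Gapdh1 296, 694 and 1514 cpm at 17-18h, against 11.8, 26.4 and 91.3 cpm at 8-9h. In all of these the stages did not overlap. ERR, the nuclear receptor that in flies drives glycolytic genes before the larval stage, was not called, at 1.17, 14.2 and 30.4 cpm at 17-18h against 0.381, 9.06 and 23.6 cpm at 8-9h (log2 fold change 0.70 ± 0.30, edgeR adjusted p = 0.0333).

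The nuclear genes of the respiratory chain had smaller rises. Of 66 tested 46 were higher (69.7%, against 31.8% of all genes) and 2 lower, with a median log2 fold change of 1.23. The count of higher genes was 24 when the small cluster was included, 29 without TMM scaling and 27 within library E1_2. ATPsynC, which encodes the membrane ring of ATP synthase, had 4348, 6449.7 and 9061 cpm at 17-18h, against 784, 1586 and 3408 cpm at 8-9h (log2 fold change 2.02 ± 0.14, edgeR adjusted p = 2.47e-18), and ATPsyngamma and ATPsynbeta rose with log2 fold changes of 1.99 and 1.75, all 3 without overlap. COX5A, at 2455 cpm at 17-18h and 1139 cpm at 8-9h, reached 0.89 with an adjusted p of 7.08e-08 (edgeR) and so missed the fold only. COX4L, a copy at medians of 0.112 cpm at 17-18h and 2.62 cpm at 8-9h, was lower, but not within any of 3 libraries taken by itself.

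More basement membrane genes rose than fell. Of 13 basement membrane genes 7 were higher (53.8%) and 2 lower (15.4%), against 31.8% and 28.8% of all genes. Their median log2 fold change was 1.33, and -0.49 within library E1_1. SPARC, a collagen-binding protein, had 482, 654 and 1276 cpm at 17-18h, against 9.14, 32.9 and 53.4 cpm at 8-9h (log2 fold change 4.43 ± 0.16, edgeR adjusted p = 2.51e-30), without overlap. The collagen IV gene vkg and the perlecan gene trol rose with log2 fold changes of 5.69 and 5.42. PH4alphaEFB, a prolyl hydroxylase that modifies collagen, fell with a log2 fold change of -2.06, and the laminin gene LanA was not called. Of 11 hemocyte genes 3 were higher and 4 lower (27.3% and 36.4%, near the 31.8% and 28.8% of all genes), with 2 to 6 lower over the alternative settings: NimC1, a receptor of plasmatocytes, had 2.93, 9.62 and 59.2 cpm at 17-18h, against 0, 0.297 and 1.95 cpm at 8-9h (log2 fold change 4.82 ± 0.40, edgeR adjusted p = 6.62e-16), whereas PPO2, of crystal cells, and crq, a scavenger receptor, fell with log2 fold changes of -2.56 and -1.59. Of the fat body genes tested 2 of 4 were higher (50%, against 31.8% of all genes) and none lower. Lpin and bmm, of lipid storage, rose with log2 fold changes of 1.93 and 1.34. The lipoprotein gene apolpp had 145, 469 and 1744 cpm at 17-18h, against 27.2, 387 and 1234 cpm at 8-9h.

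Notch signalling genes fell, both targets and members of the pathway. All 15 genes of the E(spl) and Bearded complexes, whose proteins are made in response to Notch, were lower at 17-18h, with a median log2 fold change of -3.69, and all 15 remained lower in each of the 17 alternative settings. E(spl)m7-HLH (FBgn0002633, 3R, 26037038 to 26038019), a bHLH repressor, had 4.18, 8.64 and 17.5 cpm at 17-18h, against 30.2, 189 and 456 cpm at 8-9h (log2 fold change -4.73 ± 0.26, edgeR adjusted p = 1.09e-22), without overlap. Tom and E(spl)malpha-BFM, Bearded family proteins, fell with log2 fold changes of -4.26 and -4.90, each with 17 of 18 late embryos below all early ones. The summed median of the list was 9563 cpm at 5-6h, 2249 cpm at 8-9h and 462 cpm at 11-12h. Of 15 genes of the pathway itself 12 were lower and none higher (median -1.71), with 7 lower within library E1_2 and 9 when the small cluster was included. The receptor gene N had 1.52, 13.1 and 52.9 cpm at 17-18h, against 48.9, 160.3 and 1014 cpm at 8-9h (log2 fold change -3.45 ± 0.34, edgeR adjusted p = 4.39e-13), and spdo, which encodes the Notch regulator Sanpodo of asymmetric divisions, 0, 1.22 and 6.58 cpm at 17-18h, against 13.7, 53.6 and 131 cpm at 8-9h (log2 fold change -5.09 ± 0.39, edgeR adjusted p = 3.87e-17). The ubiquitin ligase neur fell with a log2 fold change of -2.62, while kuz, the protease that cuts the receptor, had medians of 54.5 cpm at 17-18h and 42.8 cpm at 8-9h and was not called.

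Segment polarity, pair-rule and gap genes were mostly lower, and fewer EGF, FGF and Hox genes were called. Of 20 segment polarity genes 18 were lower (median log2 fold change -1.75). Of 15 pair-rule and gap genes 13 were lower and 1 higher (median -2.16). Of 17 genes of EGF and FGF signalling 7 were lower (41.2%) and 2 higher (11.8%), with a median of -0.85. Among 8 Hox genes 4 were lower (50%) and none higher, with a median of -1.05. For comparison, 28.8% of all genes were lower and 31.8% higher. The Hedgehog receptor gene ptc had 0.587, 5.31 and 13.8 cpm at 17-18h, against 2.02, 55.2 and 140.2 cpm at 8-9h (log2 fold change -3.26 ± 0.35, edgeR adjusted p = 4.27e-12), and the transcription factor gene slp1 and the Wingless antagonist nkd fell with log2 fold changes of -2.60 and -1.98. Within library E1_2, 7 of the 20 segment polarity genes, 7 of the 15 pair-rule and gap genes and 2 of the 17 EGF and FGF genes were called lower, and without TMM scaling 12 of these 17, against 11 within library E1_1. The EGF ligand gene spi fell to 9.11, 58.6 and 128 cpm at 17-18h, against 171, 335 and 1016 cpm at 8-9h (log2 fold change -2.68 ± 0.24, edgeR adjusted p = 1.43e-14), without overlap, whereas pnt, an effector of that pathway, had medians of 42.3 cpm at 17-18h and 59.6 cpm at 8-9h and was not called. The FGF receptor btl and the repressor aop fell with log2 fold changes of -2.82 and -1.39, and the FGF ligand pyr rose with a log2 fold change of 1.57.

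Single members of these lists differed in their overlap. The gap gene hb fell to 0, 0.55 and 4.04 cpm at 17-18h, against 0.601, 11.1 and 30.4 cpm at 8-9h. The gap gene hkb fell to 0, 2.68 and 9.94 cpm at 17-18h, against 12.3, 21.4 and 63.7 cpm at 8-9h, without overlap. The exception was hry, the pair-rule gene hairy, with 43.2, 105 and 282 cpm at 17-18h, against 0.505, 31.2 and 72.3 cpm at 8-9h (log2 fold change 1.83 ± 0.25, edgeR adjusted p = 6.39e-09). Among Hox genes abd-A, Abd-B and Dfd fell with log2 fold changes of -1.11, -1.19 and -1.45, and Antp had medians of 26.9 cpm at 17-18h and 56.9 cpm at 8-9h and was not called. The Hox calls changed with the setting, with 1 of 8 lower when the small cluster was included and none within library E1_2, against 6 without TMM scaling. Of 9 amnioserosa genes, expressed in the membrane that is lost at dorsal closure, 4 were lower (44.4%, against 28.8% of all genes). None was higher, and Doc3, tup and Doc2 were among the lower genes at -1.79, -2.08 and -2.66. The amnioserosa count was 0 within library E1_2, 8 within library E1_1 and without TMM scaling, and 7 without replicate 15 of 8-9h.

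Genes of cell division fell almost without exception. Of 30 cell cycle genes 29 were lower (median log2 fold change -3.02) and of 25 DNA replication genes 24 were lower (median -2.93), with none higher in either. The string gene stg, the Cdc25 phosphatase that triggers mitosis, had 8.82, 36.2 and 80.9 cpm at 17-18h, against 107, 456 and 819 cpm at 8-9h (log2 fold change -3.77 ± 0.29, edgeR adjusted p = 5.75e-17). CycA, a mitotic cyclin, had 5.93, 14.5 and 22.9 cpm at 17-18h, against 38.9, 150.1 and 258 cpm at 8-9h (log2 fold change -3.42 ± 0.22, edgeR adjusted p = 5.33e-20), and its partner kinase Cdk1 9.11, 32.2 and 50.3 cpm at 17-18h, against 60.5, 211 and 453 cpm at 8-9h. None of these overlapped between the stages. The ribonucleotide reductase gene RnrS had 4.04, 24 and 58.1 cpm at 17-18h, against 69.6, 181 and 1304 cpm at 8-9h (log2 fold change -3.56 ± 0.26, edgeR adjusted p = 5.65e-18), and the sliding clamp PCNA and the helicase subunit Mcm2 fell with log2 fold changes of -2.93 and -3.62. The members not called were E2f1, an S-phase transcription factor, at -0.77, and Psf3, of the GINS complex, with medians of 50.5 cpm at 17-18h and 33.8 cpm at 8-9h. The summed median of the cell cycle genes was 5753 cpm at 5-6h, 3064 cpm at 8-9h and 967 cpm at 11-12h, and that of the replication genes was 3783, 1150 and 433 cpm.

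Chromatin regulators of the Polycomb and trithorax groups, which keep Hox genes off or on, had 15 of 24 members lower and none higher. This was 62.5% lower, against 28.8% of all genes, with a median log2 fold change of -1.37. The count of lower members was 9 within library E1_2 and 20 without TMM scaling. The remodelling subunit brm had 3.25, 6.73 and 29.7 cpm at 17-18h, against 12.2, 57.5 and 149 cpm at 8-9h (log2 fold change -2.90 ± 0.29, edgeR adjusted p = 4.69e-13), and mor and kis fell with log2 fold changes of -3.10 and -1.94. The DNA-binding member pho was just short of the fold, at -0.99 with an adjusted p of 3.53e-04 (edgeR), and was called in 8 of the alternative settings.

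Few ribosomal protein genes were called. Of 88 cytoplasmic ribosomal protein genes none was higher and 4 were lower (median log2 fold change -0.29), with counts of 2 to 21 lower over the alternative settings, and of 71 mitochondrial ribosomal protein genes 2 were higher and none lower (median 0.11, and below 0 in 7 of 17 settings, among them no TMM scaling). The members that fell included duplicate copies: RpS5b had 149.5, 257 and 474 cpm at 17-18h, against 548, 1088 and 10697 cpm at 8-9h (log2 fold change -2.38 ± 0.25, edgeR adjusted p = 2.66e-12), and RpS15Ab 53.1, 123 and 187 cpm at 17-18h, against 190, 342 and 1044 cpm at 8-9h (log2 fold change -1.73 ± 0.18, edgeR adjusted p = 2.87e-12), both without overlap. RpS19b fell with a log2 fold change of -1.85, at medians of 0.234 cpm at 17-18h and 1.9 cpm at 8-9h. Reads of such copies can be split between paralogues by the counting. The main copy of another protein, RpS3A, had 4489, 7694 and 19315 cpm at 17-18h, against 6572, 10120 and 97472 cpm at 8-9h (log2 fold change -0.56 ± 0.15, edgeR adjusted p = 8.32e-04). Of the mitochondrial set, mRpL28 and mRpL46 rose with log2 fold changes of 1.36 and 1.20, though neither was called without TMM scaling, and mRpS18A had medians of 253 cpm at 17-18h and 253 cpm at 8-9h.

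The genes nearest to no change were eEF2, RpL5, RpS4, Rab2 and Rab7, chosen as the smallest log2 fold changes at a mean of 200 cpm or more in both stages. The elongation factor gene eEF2 had 952, 1882 and 4380.4 cpm at 17-18h, against 1151, 1865 and 14917 cpm at 8-9h (log2 fold change -0.00 ± 0.16, edgeR adjusted p = 0.985), and the vesicle traffic gene Rab2 198, 296 and 391 cpm at 17-18h, against 168, 259.8 and 547 cpm at 8-9h (log2 fold change -0.01 ± 0.14, edgeR adjusted p = 0.949). Their standard errors of 0.16 and 0.14 were derived from fold changes and test statistics that are both very small. They give only a rough bound on how small a change could have been seen. The fold changes themselves depend on the scaling, which without TMM shifts the median of all genes from -0.14 to -0.52.

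Genes of related proteins were followed one by one, with 11 of 21 higher (52.4%) and 5 lower (23.8%). Over all genes the shares were 31.8% and 28.8%. Among actins, Act57B, a muscle actin, had 1332, 4661 and 14471 cpm at 17-18h, against 127, 226 and 622 cpm at 8-9h (log2 fold change 4.43 ± 0.18, edgeR adjusted p = 3.15e-28), and the muscle actin Act87E rose with a log2 fold change of 2.23. The cytoplasmic actin Act42A fell to 282, 607 and 1089 cpm at 17-18h, against 1264, 2388 and 5579.9 cpm at 8-9h (log2 fold change -1.96 ± 0.15, edgeR adjusted p = 8.21e-17), without overlap, and Act5C, the other cytoplasmic actin, was not called, at 2166, 5152 and 12233 cpm at 17-18h against 2048, 3386 and 38058 cpm at 8-9h. Act79B, at medians of 1.46 cpm at 17-18h and 0.258 cpm at 8-9h, was called higher but lost the call in 7 settings. For myosins, the muscle heavy chain Mhc rose with a log2 fold change of 6.18 and the muscle light chain Mlc1 with one of 5.90, while the non-muscle light chains sqh and Mlc-c had log2 fold changes of -0.71 and -0.31 and were not called.

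Among tubulins, 2 genes rose. The genes betaTub97EF and alphaTub85E, used in gut and muscle attachment, rose with log2 fold changes of 3.68 and 2.72, with 141, 544 and 1042 cpm at 17-18h of betaTub97EF at 17-18h, against 6.19, 30.2 and 277 cpm at 8-9h. The general tubulin genes betaTub56D and alphaTub84D fell with log2 fold changes of -1.03 and -1.20, and alphaTub84B, whose reads may be shared with alphaTub84D, reached -0.97 and was not called. The maternal alphaTub67C fell with a log2 fold change of -1.81, at medians of 0 cpm at 17-18h and 0.71 cpm at 8-9h. The call of betaTub56D was lost in 9 settings, among them the fit without replicate 15 of 8-9h. The histone variant gene His2Av fell to 141, 316 and 462 cpm at 17-18h, against 857, 2230.2 and 13891 cpm at 8-9h (log2 fold change -3.33 ± 0.21, edgeR adjusted p = 1.68e-20), without overlap. The embryonic linker histone BigH1 was near its floor at both stages, with medians of 2.02 cpm at 17-18h and 1.41 cpm at 8-9h, and Pgm1, a phosphoglucomutase of sugar metabolism, rose with a log2 fold change of 2.22.

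Epithelial and hormonal genes gave mixed lists. Of 20 septate junction genes, which build the paracellular barrier, 9 were lower (45%) and 3 higher (15%), against 28.8% and 31.8% of all genes. Their median log2 fold change was -0.90. Fas3 had 23.3, 68.8 and 125 cpm at 17-18h, against 39.4, 380.5 and 1004 cpm at 8-9h (log2 fold change -2.36 ± 0.25, edgeR adjusted p = 7.32e-12). The claudin kune and bou fell with log2 fold changes of -1.75 and -1.76, and scrib rose with a log2 fold change of 1.98. Medians of nrv2, of the sodium pump, were 490.5 cpm at 17-18h and 846 cpm at 8-9h, and it was not called. Of 12 ecdysone response genes 4 were higher and 3 lower (33.3% and 25%, near the 31.8% and 28.8% of all genes). The nuclear receptor gene ftz-f1 had 5.39, 68.9 and 250.1 cpm at 17-18h, against 1, 3.61 and 11.6 cpm at 8-9h (log2 fold change 4.13 ± 0.38, edgeR adjusted p = 4.79e-14), and its median at 14-15h was 304 cpm. Eip74EF and Eip75B rose with log2 fold changes of 3.47 and 1.18, Hr4 fell with a log2 fold change of -3.56, and the receptor EcR had medians of 18.3 cpm at 17-18h and 34.1 cpm at 8-9h and was not called. The steroid hydroxylase genes spok and phtm rose and sad fell, with no stage median of these genes above 4.64 cpm, and wrd, a phosphatase subunit also on that list, was at 17.8 cpm at 17-18h and 17.9 cpm at 8-9h.

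The remaining lists were small, mixed or near the floor. Of 13 heat-shock genes 4 were lower (30.8%, against 28.8% of all genes tested) and 1 higher, with 2 to 7 lower over the alternative settings: Hsp27 fell to 0, 1.6 and 12 cpm at 17-18h, against 3.12, 28.4 and 80.1 cpm at 8-9h (log2 fold change -3.61 ± 0.38, edgeR adjusted p = 4.66e-12), the call of Hsp23 (-1.21) was lost in 8 settings, Hsp67Ba fell at medians of 0.221 cpm at 17-18h and 0.428 cpm at 8-9h, Hsc70-1 rose with a log2 fold change of 4.19, and the constitutive Hsc70-4 had medians of 947 cpm at 17-18h and 1089 cpm at 8-9h and was not called. Of 15 germ cell and egg genes 4 were lower (26.7%, against 28.8% of all genes), including the germ line helicase vas (-3.51), the checkpoint kinase lok (-2.19) and the piRNA factor aub (-2.04), and gcl had medians of 44.6 cpm at 17-18h and 67.1 cpm at 8-9h. Yp2 passed at 0.48 cpm at 17-18h and 0.15 cpm at 8-9h and lost the call in 5 settings. Of 6 tested genes of dosage compensation, by which the male X chromosome is transcribed more strongly, 4 were lower and none higher. This was 66.7% lower, against 28.8% of all genes, and 2 were lower within library E1_2. Among the lower genes were msl-1, mof and msl-2 at -2.16, -2.16 and -1.68, and Sxl, the sex switch, was not called. The roX RNAs, which are made in males, were not tested with the protein-coding genes: roX1 had 23.3, 68.4 and 620 cpm at 17-18h, against 100, 450 and 1425 cpm at 8-9h, and roX2 9.94, 175 and 657 cpm at 17-18h, against 34.8, 154 and 781 cpm at 8-9h.

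A comparison of the stages alone misses what happens between them. Of the 3779 genes not called, 74 were at least 4 times higher in the stage median of 11-12h or 14-15h than in both stages, with at least 20 cpm, a set chosen after the values were seen and given without a test, and 3 dipped by as much between them. The Osiris family, secreted or membrane proteins of cuticle-forming cells, held 8 of the 74. Osi6 had a median of 13.1 cpm at 17-18h and 10.8 cpm at 8-9h (log2 fold change 0.24 ± 0.48, edgeR adjusted p = 0.669), but 1249 cpm at 11-12h, and Osi7 had 15.5 cpm at 17-18h and 13.3 cpm at 8-9h, but 789 cpm at 11-12h. Of 13 Osiris genes tested 1 was higher (Osi2, 2.98) and 1 lower (Osi12, -1.89, a call lost in 6 settings). Also in the set, ect had 5.33 cpm at 17-18h and 3.54 cpm at 8-9h but 475.5 cpm at 11-12h, and dyl, a zona pellucida protein that shapes cuticle projections, had 1.11 cpm at 17-18h and 0.975 cpm at 8-9h but 67.4 cpm at 11-12h. CG11380 had 1.08 cpm at 17-18h and 2.12 cpm at 8-9h, but 179.5 cpm at 14-15h.

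**Figure D4:**
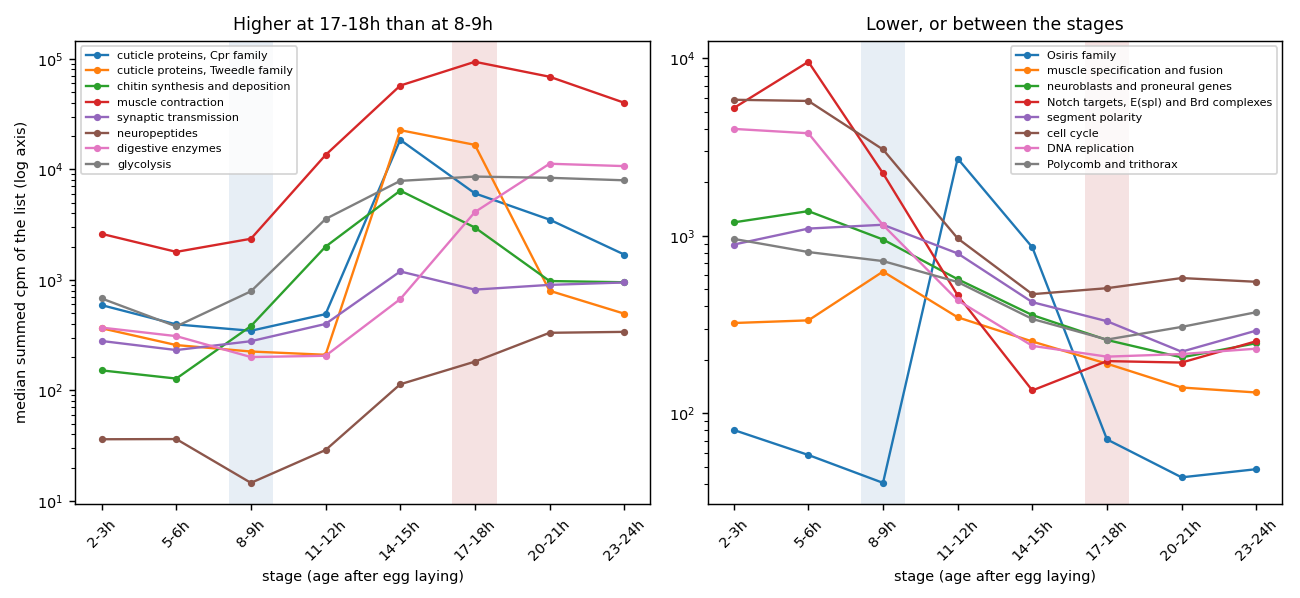
Median summed normalised cpm (log axis) of 16 gene lists in the used embryos of 8 stages, with 8-9h and 17-18h shaded. Muscle contraction genes are highest at 17-18h (93940 cpm), digestive enzymes at 20-21h (11230 cpm) and the Tweedle family at 14-15h (22610 cpm), while the Osiris family peaks at 11-12h (2724 cpm), between the stages compared.

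The spread between embryos of the same age was given as the adjusted SD, the SD of a gene's log2 cpm within a stage over the SD expected from its mean over all stages. Its median over genes was 0.648 at 17-18h and 0.571 at 8-9h, the lowest of the 8 stages, with 11-12h (0.592) and 5-6h (0.602) also below 17-18h, so the later stage was low only beside 14-15h, 20-21h, 23-24h and 2-3h. The stages were chosen by these medians, which are a description. Each embryo also received a deviation, the distance from the mean of its stage in expected SDs at the median gene, which averaged 0.407 ± 0.0665 at 17-18h (SD, n = 18) and 0.334 ± 0.0900 at 8-9h (SD, n = 27). The difference was 0.0731, with the median absolute deviation 0.0441, and over the genes not called 0.00499. Because the same spread chose the stages, these differences are given without a test.

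The difference in spread was unevenly placed among genes. Genes called higher had a median adjusted SD of 0.834 at 17-18h and 0.419 at 8-9h, genes called lower 0.554 at 17-18h and 0.626 at 8-9h, and genes not called 0.644 at 17-18h and 0.608 at 8-9h. By these medians, genes called higher and genes called lower were each more spread at the stage where they were more expressed. Gene by gene, 2340 genes called higher were more spread at 17-18h and 717 at 8-9h. Of the genes called lower, 1572 were more spread at 8-9h and 1195 at 17-18h. The floor of low counts bears on this measure: log2 cpm below 0 was set to 0, which shrinks the spread of a gene near silence. Neuropeptides had medians of 1.08 at 17-18h and 0.0866 at 8-9h, the Tweedle family 1.17 at 17-18h and 0.288 at 8-9h, and digestive enzymes 0.976 at 17-18h and 0.307 at 8-9h. E(spl) and Bearded genes had 0.510 at 17-18h and 0.867 at 8-9h. Contractile genes, which rose strongly, had 0.758 at 17-18h and 0.831 at 8-9h, and nuclear genes of the respiratory chain 0.372 at 17-18h and 0.527 at 8-9h, so these were not more spread at the later stage.

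At 17-18h the genes with the highest adjusted SD at a mean log2 cpm of 6 or more were TwdlM, mt:Cyt-b, CG5084, CG7299 and TwdlB. TwdlM had 128, 7335 and 59908 cpm at 17-18h, against 4.4, 92.7 and 318 cpm at 8-9h, and TwdlB 41.7, 2965 and 15070 cpm at 17-18h, against 2.31, 27.2 and 103 cpm at 8-9h. Both were highest in replicate 9 and lowest in replicate 14 of 17-18h. CG7299 was placed the other way, highest in replicate 14 at 1155 cpm and lowest in replicate 9 at 4.35 cpm, with a median of 107 cpm at 17-18h, against 4.22 cpm at 8-9h. The summed median of the Tweedle family was 22610 cpm at 14-15h and 16640 cpm at 17-18h, though the median of TwdlN rose between these stages. For CG7299 the median was 5.82 cpm at 14-15h. Whether differences in age among the 17-18h embryos bear on these extremes was not tested.

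At 8-9h the corresponding genes were CG9184, TpnC73F, CG10591, jhamt and apolpp. CG9184 had 164, 253 and 1084 cpm at 17-18h, against 152, 2919.7 and 71509 cpm at 8-9h, and CG10591 27.3, 49.5 and 525 cpm at 17-18h, against 45.9, 245 and 26826 cpm at 8-9h. The highest value of both, and of the troponin gene TpnC73F (2669 cpm), was in replicate 14, the 8-9h embryo most like 11-12h, and the second highest in replicate 8. At 11-12h the medians of CG9184 and CG10591 were 22903 and 5825 cpm. Whether differences in age among the 8-9h embryos bear on these values was not tested. Another pattern was that of jhamt, the methyltransferase that completes juvenile hormone, which had 3.66, 57.3 and 209 cpm at 17-18h, against 1.2, 117 and 974 cpm at 8-9h, with its highest 8-9h values in replicates 17 and 24. The fat body gene apolpp ranged over 27.2, 387 and 1234 cpm at 8-9h, lowest in replicate 15.

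**Figure D5:**
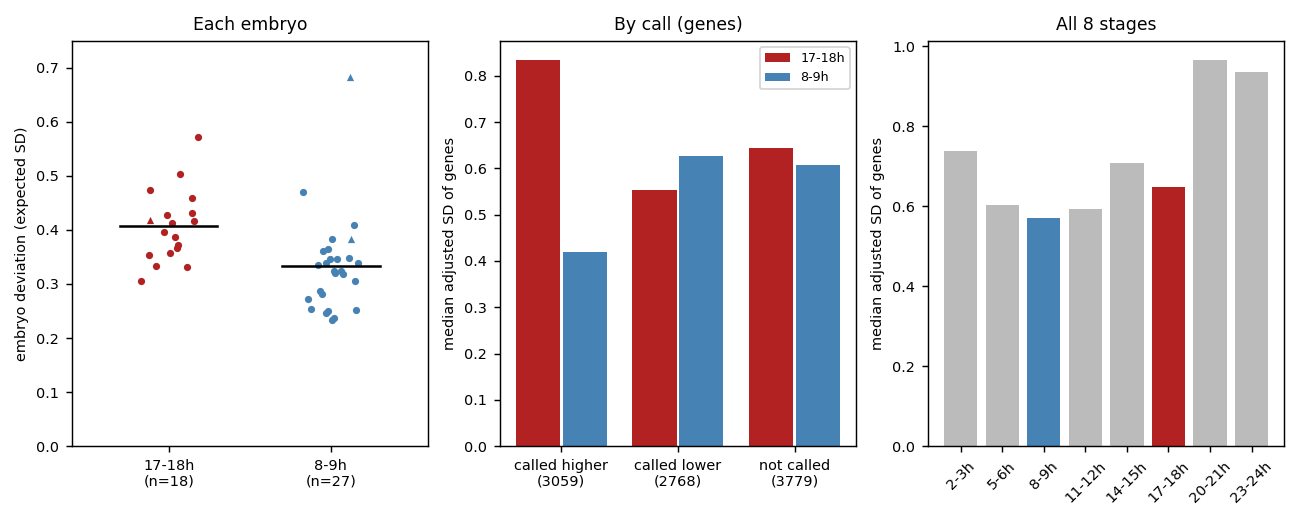
Left, the deviation of each embryo from its stage mean (in expected SDs) with the stage mean as a line and triangles for the 3 embryos most like another stage. Middle, the median adjusted SD of genes by call, 0.834 at 17-18h and 0.419 at 8-9h for genes called higher; right, the median adjusted SD over 9606 genes at each of 8 stages, 0.571 at 8-9h and 0.648 at 17-18h.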

How the data were processed

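The RNA of single embryos was read at its 3′ end by BRB-seq. The authors demultiplexed and trimmed the reads, aligned them with STAR to BDGP6 with Ensembl release 91 annotation, and counted them per gene with HTSeq. The deposited table holds raw counts with no molecular identifiers, so PCR copies are counted and counting intervals would cover counting error only. Whether the counting used strand is not given in the sources used here, so overlapping and antisense genes are uncertain. Gene names, biotypes and positions come from Ensembl release 115, in which 17560 of 17698 gene IDs were found. The 138 unmatched rows held 1.43% of the counts and the protein-coding genes 95.3%. All 288 columns were mapped to samples by name.

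Samples below 300000 counts or 4500 genes were left out, as were those of the small cluster, found by classical scaling on 1 minus Spearman's correlation of log2 cpm that was quantile-normalised and corrected for library with ComBat (sva 3.50.0). Genes with a mean above 1 cpm over the 250 samples past the count limits entered an edgeR 4.0.16 quasi-likelihood fit in R 4.3.3 (TMM factors, robust dispersion, library plus stage), with Benjamini-Hochberg adjustment over 9606 genes. Calls needed an adjusted p under 0.05 with a log2 fold change past 1. Errors given with ± on a log2 fold change are approximate standard errors. They were derived as the absolute log2 fold change over the square root of the F statistic of its test. Cpm values are given as lowest, median and highest embryo. GEO's labels give the embryos as separate samples, and nothing beyond the labels and cages shows how many parents they came from.

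The genes named are the 10 largest changes in each direction without overlap and with a median of 50 cpm or more, 3 called members of each list with the smallest adjusted p, 1 in the other direction, the most abundant member not called, all paralogues of the last list, 5 genes nearest to no change and 5 with the highest spread at each stage. The genes between the stages were added afterwards. The stages, lists and tests were chosen with earlier results of these data known. No test of the spread is printed, because the spread chose the stages. Adjusted SD followed the study's approach, with a polynomial of degree 5 for the SD expected at a given mean. The scripts were tested on simulated data with known changes. An edgeR adjusted p under 0.05 in the right direction was reached by 35% of 2-fold rises and 27.5% of 2-fold falls. For 4-fold rises and falls the shares were 82.5% and 85%, and 0.0425% of unchanged genes passed. The simulation changed only 200 of 9606 genes, far fewer than were called in the data, so an adjusted p under 0.05 was harder to reach in it. These shares therefore do not measure how many changes were missed here. A gene not called may still differ by about 2-fold, because a call also asked for a log2 fold change past 1. Alternatives were other scalings, DESeq2 1.42.0, other filters on low counts, other sample sets, single libraries and counts thinned to 300000. The sample whose labels give conflicting ages was left out of the main comparison.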

Additional observations from a re-analysis of the deposited data

Results flagged for a closer look

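The genes with the largest rises were also read in samples that the main comparison did not use. Summed over the 10 genes, 7 of the 8 samples labelled 17-18h that failed the count limits lay above the highest used 8-9h embryo (111 cpm). Replicates 29, 23 and 26 held 6077, 5477 and 4741 cpm, inside the range of used 17-18h embryos, as were replicates 27 and 5 at 1900 and 1816 cpm. Replicates 24 and 25 held 250.6 and 169 cpm. Of the 9 samples labelled 8-9h in the small cluster, 3 also lay above 111 cpm, with 207.7 cpm in replicate 19, 169.5 cpm in replicate 31 and 128.1 cpm in replicate 23. The totals of the failed samples are low, so their cpm rests on few reads.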

How the results depend on the processing

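Over 17 alternative fits the count of genes called higher was 2269 to 4046 and that of genes called lower 1812 to 3681. The lower counts that moved by more than 1.5 times were 1812 within library E1_2 and 1082 with a log2 fold change past 2. With the small cluster included, 2774 of the genes called higher and 2186 of those called lower kept their call and 3 turned. Without TMM scaling the share of higher genes among calls was lower (2726 against 3681 genes), and all 2768 genes called lower kept their call. The difference in embryo deviation, given without a test, was 0.0441 with the median absolute deviation and 0.004987 over genes not called, while the other 6 settings gave 0.0595 to 0.1208, among them 0.0943 without the 3 embryos most like another stage, whose removal lowers the spread at 8-9h by construction. Leaving out the 3 embryos most like another stage, or 8-9h replicate 15 alone, was chosen after seeing the data, with 3032 higher and 2964 lower, and 3010 and 2974. Of the named genes, the log2 fold change of CCAP was -3.94 within library E1_2 (0.89 over all libraries). Within library E1_1 the log2 fold change of pyr was -0.0547 (1.57 over all) and the log2 fold change of Act79B was -0.0361 (1.79 over all). The cause was not tested. Library E3 could not be fitted by itself, with 1 embryo of 17-18h. No paired analysis was possible because the labels give no replicate numbers that the stages share. At medians under 1 cpm few reads lie behind a value, which limits what can be seen of low genes.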
